A study of Mus musculus with 2 samples.

Results

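The beating sperm tail is built around the axoneme, and the messenger RNA for its motors and regulators was followed here in adult mouse testis. Members were taken by symbol: every protein-coding gene in the gene tables whose symbol begins with Dnah, Dnai, Dnal, Dnaaf, Rsph, Tekt, Drc or Cfap and goes on to a number. The rule found 70 genes among 21474 protein-coding genes listed. It used no measured value. Cfap99, a further protein-coding match in the annotation, was not analysed here, and Dnah2os matches by its letters but is an antisense RNA and was left out.

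Poly(A) RNA was sequenced in 2 libraries, biological replicates 1 and 2, from the testes of adult male C57BL/6J mice aged 8 weeks. The labels name no treatment or mutation, and they call the animals littermates while giving both libraries the same donor identifier. The SD and every interval below therefore measure only the spread between these samples, which may be technical, or counting error. There is 1 group, so nothing was tested between groups.

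The axoneme is a ring of microtubule doublets around a central pair. Outer and inner dynein arms, ATP-driven motors on each doublet, slide the doublets past each other, while the nexin-dynein regulatory complex and the radial spokes that reach toward the central pair shape sliding into bending. Tektins are filaments inside the doublets, many proteins with the Cfap name (cilia and flagella associated protein) line the doublets or decorate the central pair, and dynein arms are put together in the cytoplasm by dedicated assembly factors. In testis such genes serve the spermatid flagellum. Motile cilia of airway, brain ventricle and oviduct have axonemes too, and some members, such as Dnah5 and Rsph4a, are related copies known from such cilia.

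Expected counts, the authors' estimates of reads per gene, summed to 49023238 and 51465728 over Ensembl genes. The testis label was met by its markers: all 9 spermatid genes, 8 Sertoli genes and 6 Leydig genes listed had a TPM of 1 or more in each library. TPM is the authors' level per transcript length, scaled to the library total. Below, 2 values joined by "and" belong to replicates 1 and 2 in that order. The libraries stood apart in other markers. The 11 epididymis genes listed had a summed TPM of 715 and 3.81, with 4 genes at 0 in replicate 1 and 5 in replicate 2. For Crisp1, an epididymal secreted protein that coats sperm, these levels were 454 and 0.2. All 6 peritubular smooth muscle genes were lower in replicate 2, with summed TPMs of 305 and 143, and all 8 Sertoli genes were higher there, with a median log2 ratio of 0.34.

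Nearly the whole axoneme list was expressed. Of the 70 members, 66 had a TPM of 1 or more in each library, or 94.3%, against 62.1% of all protein-coding genes. The median member had a mean TPM of 48.0, with medians of 47.8 and 46.95 in single libraries (SD 0.576, n = 2), against 3.58 over all protein-coding genes and 12.9 over those that reached a TPM of 1. The level distribution lay high but not at the top of the transcriptome: 22 members, or 31.4%, had a mean TPM of at least 100, against 7.75% of protein-coding genes. Ranked among protein-coding genes, 25 members were in the top 10%, 53 in the top 25% and 65 in the top 50%. Together the 70 genes held 0.789% of protein-coding TPM in replicate 1 and 0.763% in replicate 2. In bulk tissue, fewer cells of a type and less RNA per cell cannot be told apart.

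**Figure D1:**
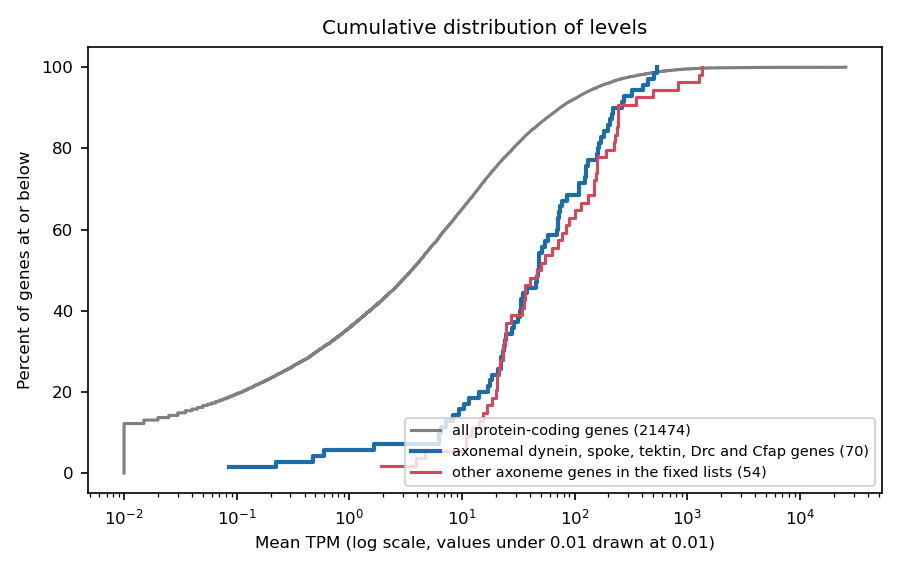
Cumulative percent of genes (y axis) at or below a mean TPM (x axis, log scale). Curves show all 21474 protein-coding genes, the 70 members and the genes with other names in the fixed axoneme and dynein lists. The members' curve crosses the middle at a TPM of 48.0, far to the right of the protein-coding curve at 3.58, and stops at 543.

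The 4 members below a TPM of 1 were Dnah5, Dnah11, Rsph4a and Cfap97d2. The first 3 are known from motile cilia outside the testis, such as those of the airway. Each had some counts in both libraries, so they were low rather than at 0. Next above them came Dnah9 at a mean TPM of 1.65, and every other member was at 6.22 or more.

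**Figure D2:**
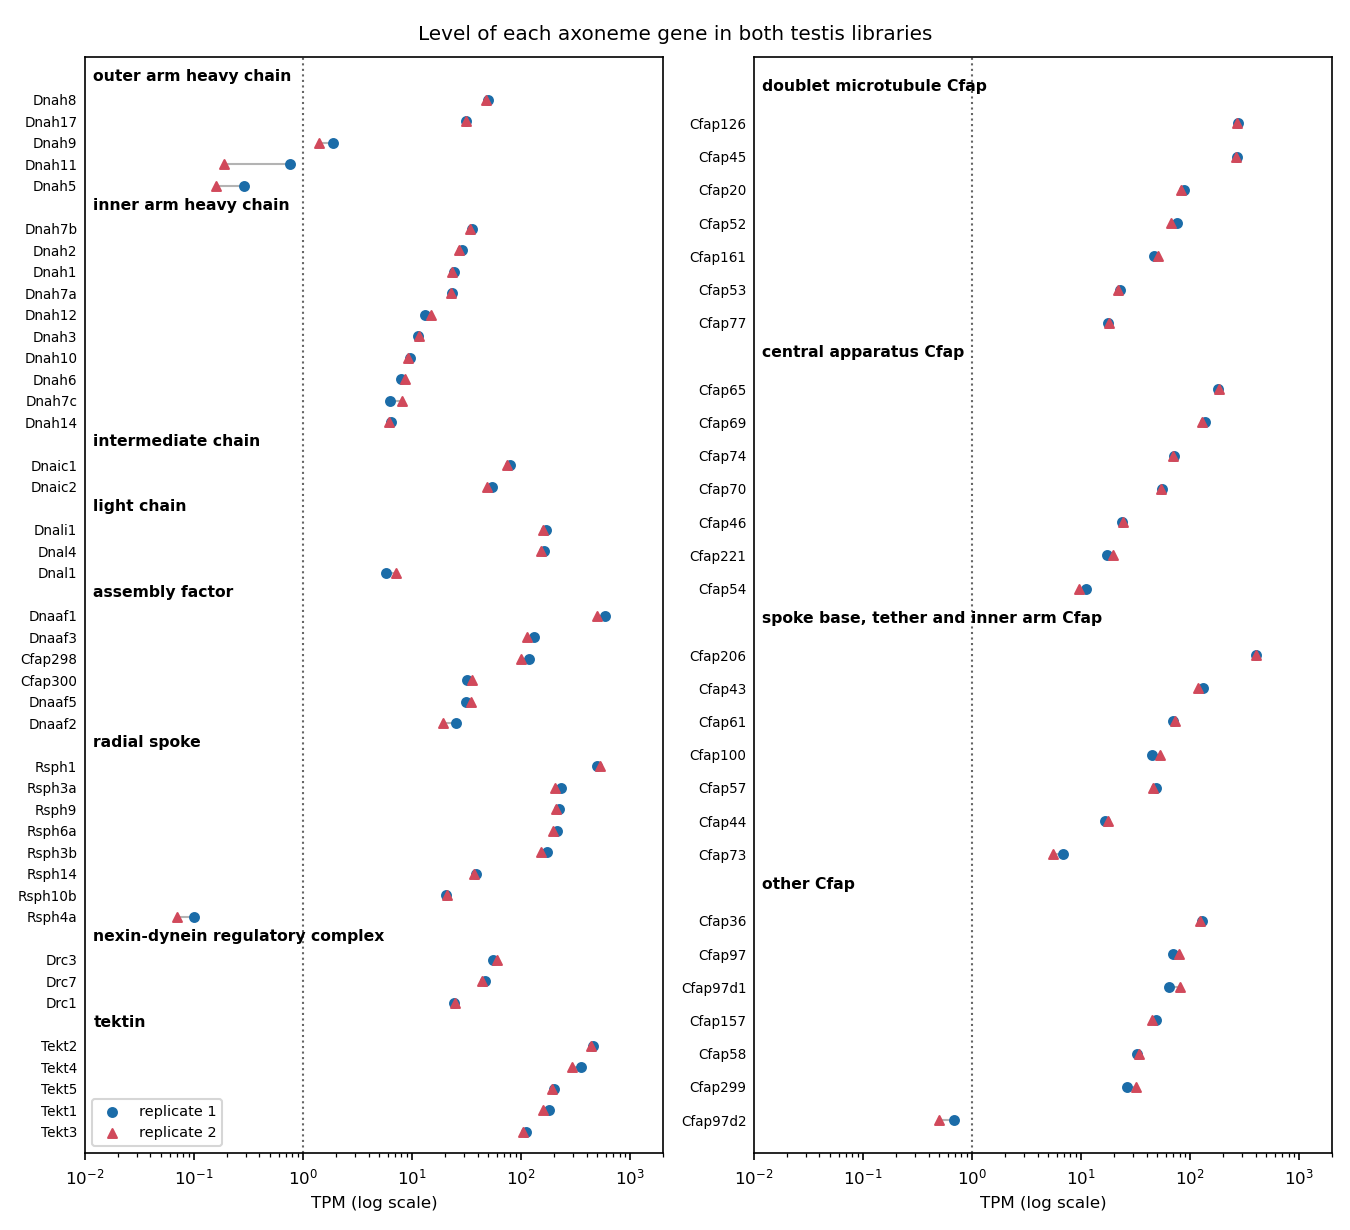
TPM (x axis, log scale) of each of the 70 members in replicate 1 (circles) and replicate 2 (triangles), grouped by role, with the dotted line at a TPM of 1. Dnah11, Dnah5, Rsph4a and Cfap97d2 lie left of the line in both libraries, and the 2 symbols of most genes overlap.

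Promoters of 22 members carried the letters bound by RFX factors, which drive cilium genes through the X-box, a pair of inverted copies of GTTGCC. The sequences below come from the RefSeq promoter table on GRCm38.p6, each as far as the annotated start. They show the motif on either strand (GTTGCC or its complement GGCAAC, in capitals) in genes of different structures. The first 2 hold both inverted copies and are in capitals over that stretch. They lie wholly within exons of Cfap298 in GENCODE M21, which also has transcripts that start farther upstream. The Tekt1 and Dnah7b windows also lie inside their GENCODE M21 genes, outside annotated exons. The 3 Dnah7 windows are lined up on the motif and are not a sequence alignment.
Cfap298, position -188 from its start, chr16:90935017-90935044, minus strand: ggttttgGTTGCCCGGGCAACagctact
Cfap298, position -69, chr16:90934897-90934925, minus strand: tttgactGTTGCCCCTGGCAACagccact
Dnaaf2, position -9, chr12:69198430-69198460, minus strand: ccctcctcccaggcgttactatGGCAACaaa
Dnaic2, position -26, chr11:114727371-114727418, plus strand: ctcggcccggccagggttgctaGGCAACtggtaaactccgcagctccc
Drc1, position -11, chr5:30281360-30281392, plus strand: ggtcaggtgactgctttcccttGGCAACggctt
Tekt1, position -15, chr11:72361883-72361919, minus strand: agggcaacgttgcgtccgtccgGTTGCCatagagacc
Tekt2, position -22, chr4:126325689-126325732, minus strand: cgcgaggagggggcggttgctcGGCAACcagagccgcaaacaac
Cfap44, position -19, chr16:44394758-44394798, plus strand: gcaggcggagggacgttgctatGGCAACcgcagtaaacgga
Cfap20, position -94, chr8:95434936-95434985, minus strand: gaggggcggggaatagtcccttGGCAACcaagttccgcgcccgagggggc
Cfap97d2, position -19, chr8:13705848-13705888, plus strand: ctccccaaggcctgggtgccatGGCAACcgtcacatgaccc
Dnah7a, position -200, chr1:53706957-53707006, minus strand: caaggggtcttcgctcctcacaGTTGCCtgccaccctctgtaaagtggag
Dnah7b, position -163, chr1:46066668-46066717, plus strand: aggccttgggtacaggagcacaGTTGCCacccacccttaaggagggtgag
Dnah7c, position -219, chr1:46425277-46425326, plus strand: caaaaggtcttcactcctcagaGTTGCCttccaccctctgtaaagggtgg

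The RFX motif was searched on both strands in the 300 bases from 250 before to 50 after each start. The table held 58 of the 70 members, with 65 promoters. The motif lay in a promoter of 22 of them, or 37.9%, against 14.1% of the 16317 protein-coding genes in the table and 16.1% of those that reached a TPM of 1. With A or G allowed as the fourth letter, 29 of the 58 held it, against 20.4% of protein-coding genes. The full inverted pair in this strict spelling (GTTNCC, up to 3 bases, GGNAAC) was rare. Cfap298 alone held it, in the 2 copies shown, against 0.901% of protein-coding genes. Pairs with a changed letter were not counted. The windows of Dnaic2, Tekt2 and Cfap44 show such a near copy, gttgct, just before GGCAAC. Each motif count is a match of letters and not a measured binding site.

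Matches were spread over structures. Among assembly factors 4 of 5 genes in the table held the motif, among tektins 3 of 5, and among inner arm heavy chains 4 of 9. None of the 5 outer arm heavy chains or 3 light chains did in this spelling, though Dnah8 and Dnali1 did with A or G as the fourth letter. The 3 Dnah7 genes all held it. Over the 50 bases shown, lined up on the motif, Dnah7a and Dnah7c had the same base at 42 positions. Dnah7b matched them at 23 and 21, but its window lies inside its annotated gene and theirs lie upstream. The windows may therefore not be matching places. The motif did not go with a high level: the 22 genes with it had a median TPM of 34.2 and the 36 without it 64.4. Cfap97d2 held it at position -19 and was at a TPM of 0.68 and 0.50.

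The motif lay near the start more often than elsewhere in these promoters. Of 36 matches in the members' promoters, counted once for each listed start, 13 began in the last 50 bases before it, or 36.1%, against 19.0% of matches in other protein-coding promoters. Both copies of an inverted pair were counted, so the matches are not all separate sites. For 44 of the members' 65 promoters, a 40-base stretch just after the listed start occurred in a GENCODE M21 transcript of the gene. Other elements searched were not more frequent in members. CCAAT was in promoters of 41.4% of members, against 42.0% of protein-coding genes and 42.9% of those that reached a TPM of 1, and in the 200-base window nearest the start in 22.4% against 33.2% and 34.5%. TATAAA was in 5.17%, against 14.1% and 8.76%. The full cyclic AMP response element TGACGTCA was in Dnah6 only, or 1.72% of members against 2.66% and 3.45%. Median GC content was 55.3% for members' promoters against 57.0% for all protein-coding genes and 60% for those that reached a TPM of 1.

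**Figure D3:**
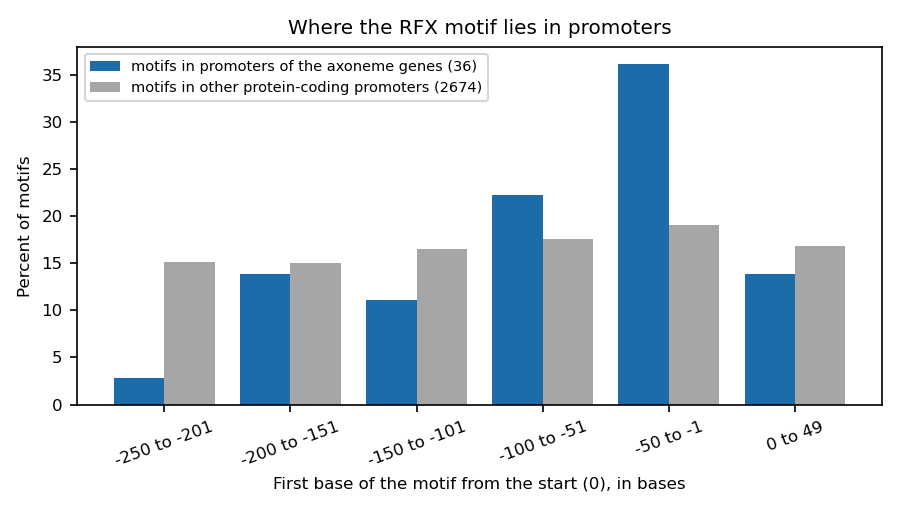
Percent of RFX motif matches (y axis) by distance of the first base from the annotated start (x axis, bins of 50 bases) in the members' 65 promoters and in those of other protein-coding genes. The members' bar is highest in the last 50 bases before the start, at 36.1% against 19.0%.

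Outer arm heavy chains, the largest motor subunits, split into a pair at substantial levels and 3 near the bottom. Dnah8 (chr17:30624354-30877365), the heavy chain known from the sperm outer arm, had a TPM of 49.8 and 47.8. Dnah17 (chr11:118021723-118130634), its partner in sperm, had 31.6 and 31.1. Dnah9, a heavy chain of the distal part of airway cilia, had 1.88 and 1.42. Dnah8 lay above Dnah17, and both lay above Dnah9, in each library with no overlap.

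Dnah5 (chr15:28203752-28472052), the airway paralog of Dnah8, had a TPM of 0.29 and 0.16 from 182 and 107 expected counts. Dnah11 (chr12:117877982-118199043), the airway partner of the Dnah5 arm in proximal cilia, had 0.77 and 0.19 from 283 and 73. Both were lower in replicate 2. Dnah8 and Dnah17 held 96.5% and 97.8% of the summed TPM of the 5 genes, a mean of 97.2% ± 0.911 (SD, n = 2). In TPM, Dnah8 exceeded Dnah5 by 172-fold in replicate 1 and 299-fold in replicate 2.

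Inner arm heavy chains ranged from 6.29 to 34.8 in mean TPM, and all 10 were above 1 in both libraries. Dnah2, a heavy chain of the dimeric f arm, had a TPM of 28.8 and 27.1. Its partner in that arm, Dnah10, had 9.52 and 9.21, so the 2 genes of the dimer differed while each was close between libraries. Dnah1, whose loss in human sperm disrupts the flagellum, had 24.2 and 23.1. The others are monomeric inner arm chains or their relatives. Dnah12 had 13.1 and 15.1. Dnah3 had 11.3 and 11.7. Dnah6 (8.01 and 8.59) and Dnah14 (6.43 and 6.14) were lower than these in both libraries.

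Mouse has 3 copies of Dnah7 on chromosome 1, at chr1:53397006-53706784 for Dnah7a, chr1:46066315-46373546 for Dnah7b and chr1:46425592-46807476 for Dnah7c. Dnah7b had a gene TPM of 35.5 and 34.0. Dnah7a had 23.3 and 22.9, and Dnah7c had 6.26 and 8.04. The order of the 3 gene totals was the same in both libraries.

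Part of these gene levels came from transcripts too short to encode a heavy chain. Counting only transcripts of at least 10000 bases, Dnah7b had a TPM of 6.41 and 7.74, Dnah7a 6.70 and 7.23, and Dnah7c 6.13 and 7.69. The ranges of the 3 copies over the libraries then overlapped, whereas those of their gene totals did not. Dnah7a-202, a processed transcript of 732 bases, held 71.2% and 68.5% of the Dnah7a TPM, and Dnah7b-203, a nonsense-mediated decay transcript of 740 bases, held 54.6% and 48.8% of that of Dnah7b. The Dnah7 genes also share sequence: 32.8% of the 76-base stretches of Dnah7c, 26.3% of Dnah7a and 20.7% of Dnah7b occur in another gene, so their split is uncertain.

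Other heavy chains differed in the same respect. Dnah8, Dnah1, Dnah3 and Dnah5 had 1 listed transcript each, full length. Dnah17 kept 92.3% of its TPM in long transcripts, and Dnah2, Dnah10 and Dnah6 kept 95.4%, 97.9% and 98.7%. Dnah9 kept 9.09%, which left a TPM of 0.15 in each library, and Dnah11 kept 19.8%, with 81.0% and 81.4% in the nonsense-mediated decay transcript Dnah11-204. No transcript of 10000 bases was listed for Dnah12, whose longest had 7005 bases, or for Dnah14, where both transcripts with counts were retained introns of at most 1986 bases. In long transcripts alone, Dnah8 and Dnah17 held 99.3% and 99.5% of outer arm heavy chain TPM. The 15 heavy chains together made up 3.72% of the members' TPM but 18.5% of their counts.

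**Figure D4:**
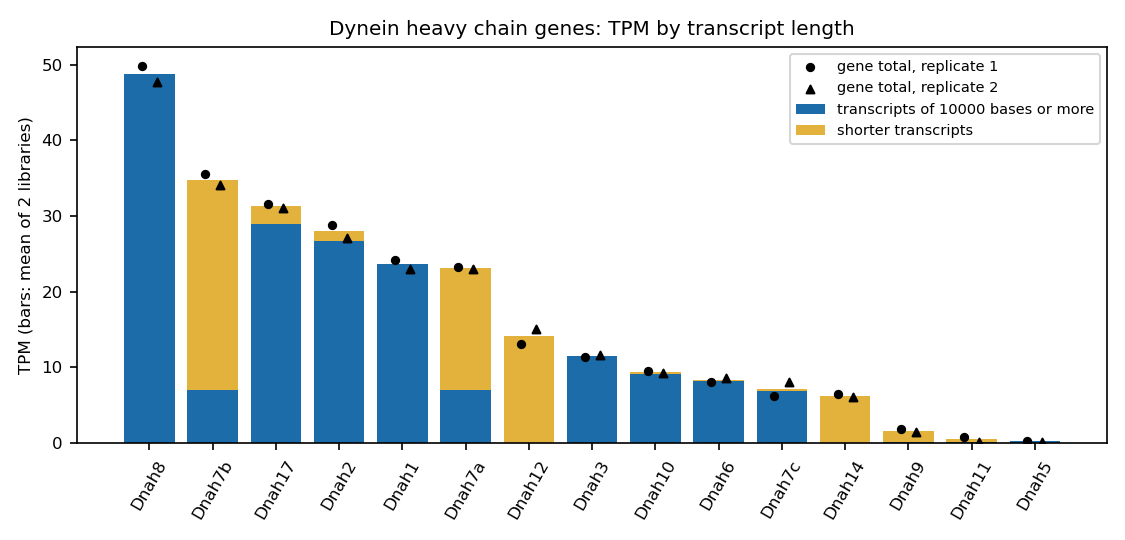
TPM (y axis) of the 15 dynein heavy chain genes, as stacked bars of the mean of both libraries split into transcripts of at least 10000 bases and shorter ones, with circles and triangles for the gene totals in replicates 1 and 2. Dnah7b, Dnah7a, Dnah12, Dnah14 and Dnah9 are mostly or wholly in shorter transcripts, and Dnah8 is highest at 48.8. For Dnah12 and Dnah14 no transcript of at least 10000 bases was listed, so none could be counted.

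Intermediate chains, which hold the outer arm to its base, had gene totals above those of the heavy chains in each library. Dnaic1 had a TPM of 79.6 and 74.8, and Dnaic2 had 54.1 and 49.2. Per transcript, Dnaic1 exceeded Dnah8 by 1.60-fold in replicate 1 and 1.57-fold in replicate 2. Light chains differed among themselves by more. Dnali1, an inner arm light chain, had 168 and 160, Dnal4 had 163 and 152, and Dnal1, a leucine-rich light chain of the outer arm, had 5.81 and 7.14. Dnal4 exceeded Dnal1 by 28.1-fold and 21.3-fold.

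Assembly factors held the member with the highest mean TPM, 543 against 509 for the spoke gene Rsph1, which was above it in replicate 2. This member, Dnaaf1 (chr8:119575235-119598454), a leucine-rich repeat protein needed to preassemble dynein arms, had a TPM of 587 and 499, and its mean ranked at position 252 among protein-coding genes. Dnaaf3 had 131 and 114. Cfap298, which acts in the same cytoplasmic process, had 117 and 100.1. These 3 were lower in replicate 2. Cfap300 (31.8 and 35.5) and Dnaaf5 (31.4 and 35.0) were higher in replicate 2, with overlapping ranges. Dnaaf2, a cofactor of the chaperone HSP90 in assembly, was lowest at 25.2 and 19.3. Dnaaf1 exceeded Dnaaf2 by 23.3-fold and 25.8-fold. Of the 76-base stretches of Dnaaf2, 37.3% also occur in other genes of the later GENCODE M21 annotation, chiefly the unnamed models Gm49383 and Gm49384. The authors' posterior SD for its count was 0% of the count in both libraries. That SD rests on their earlier annotation, which may lack these models, so it may not reflect the sharing.

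Radial spoke genes showed a wide split between paralogs of the spoke head. Rsph6a (chr7:19054690-19074447), the sperm spoke head protein, had a TPM of 214 and 195. Rsph4a (chr10:33905111-33916021), its paralog in airway cilia, had 0.10 and 0.07, from 14 expected counts (95% Poisson interval 7.65 to 23.5) and 10 (4.80 to 18.4). Rsph6a held 99.95% and 99.96% of their summed TPM, a ratio of 2144 and 2790. The 2 genes share no 76-base stretch with each other or with any other gene.

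Of the other 6 spoke genes, 4 were above a TPM of 100 in both libraries. Rsph1, a spoke head protein with MORN repeats, had 492 and 525. Rsph9, another head protein, had 224 and 208. Rsph3a, a stalk protein gene, had 232 and 205, and its copy Rsph3b had 172 and 151. The 2 copies lie on chromosome 17, and 48.6% of the stretches of Rsph3a occur in Rsph3b while 55.8% of those of Rsph3b occur elsewhere, 49.3% in Rsph3a. The authors' posterior SD for these counts was still low, at 0.54% and 0.63% of the count for Rsph3a and 1.03% and 1.20% for Rsph3b. The remaining spoke genes were below the members' median, Rsph14 at 38.3 and 37.4 and Rsph10b at 20.3 and 21.1.

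The 3 Drc genes, of the nexin-dynein regulatory complex that links neighbouring doublets, stood at middle levels. Drc3 had a TPM of 55.0 and 60.3, Drc7 had 46.9 and 44.1, and Drc1, a core scaffold, had 24.1 and 24.7. The 5 tektins were all high. Tekt2 (chr4:126322121-126325688) was highest at 460 and 439. Tekt4 had 352 and 291. Tekt5 and Tekt1 were close, with 201 and 194 for Tekt5 and 182 and 159 for Tekt1. Tekt3 was lowest at 112 and 105. Every tektin was higher in replicate 1, and their order was the same in both libraries. Tekt2 exceeded Tekt3 by 4.12-fold and 4.17-fold.

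Cfap genes outside assembly covered the doublet, the central pair and the spoke base. Doublet genes had a median TPM of 71.3 over 7 genes. Cfap126 had 274 and 272, Cfap45, a filament inside the doublet, 268 and 264, and Cfap20, which helps join the tubules of a doublet, 88.6 and 82.6. Cfap77 was lowest at 17.7 and 18.01. Central apparatus genes had a median of 54.4 over 7 genes. Cfap65 had 181 and 183, Cfap69 137 and 128, and Cfap74 71.2 and 69.1, while Cfap54, a large projection protein, was lowest at 11.0 and 9.65.

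Genes of the spoke base, the tether of inner arms and related structures had a median of 48.4 over 7 genes. Cfap206, at the base of a spoke, had 405 and 401, Cfap43 131 and 119 and Cfap61 70.0 and 72.3, and Cfap73 was lowest at 6.89 and 5.55. The Cfap43 row (chr19:47736857-47919287) needs care, because it includes Itprip-201, a transcript that the later GENCODE M21 annotation gives to the neighbouring gene Itprip, which has 0 rows of its own. Without it, Cfap43 had a TPM of 88.2 and 82.1. It was the only member row with a named transcript of another gene. The remaining 7 Cfap genes had a median of 46.6. In gene totals they were led by Cfap36 at 128 and 123, Cfap97 at 69.5 and 79.6 and Cfap97d1 at 64.2 and 81.4. Cfap97d2 had 0.68 and 0.50, from 16 and 12 expected counts.

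Genes with other names, listed by axoneme structure or dynein function and not all specific to the axoneme, were also expressed. All 7 outer arm docking genes listed were above a TPM of 1, from Efcab1 at 1.72 and 2.07 to Ccdc63, known from the sperm docking complex, at 231 and 217. The 10 further dynein chains had a median of 109 and were led by the light chain Dynlt1b at 1333 and 1189, with Wdr78 lowest at 19.3 and 21.8. The 11 further spoke genes had a median of 158, from Armc2 at 14.4 and 14.1 to Ropn1l at 1429 and 1270.

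The 10 further assembly factors had a median of 23.3, from Pih1d3 at 3.31 and 4.48 to Pih1d1 at 262 and 223. The 8 further regulatory complex and ruler genes had a median of 61.7, from Iqca at 10.5 and 11.2 to Tcte1 at 249 and 226. The 8 further central pair genes had a median of 65.3, from Spef2 at 4.39 and 5.07 to Spag6l at 135 and 130. Every gene in these 6 lists reached a TPM of 1 in both libraries, against 62.1% of all protein-coding genes.

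Of 10 regulators of cilium genes and of multiciliated cells, 6 did. Rfx2, which acts in spermatids, was highest at 289 and 263. Foxj1, the master factor of motile cilia, had 86.7 and 65.4, Rfx1 77.6 and 70.0, Rfx4 74.5 and 80.6 and Rfx3 26.7 and 25.6. Ccno, a cyclin family gene of multiciliated cells and not a transcription factor, had 5.70 and 4.29. Mcidas, Gmnc, Myb and Trp73, which also act in multiciliated epithelial cells, were each under 1. Of 8 markers of multiciliated epithelium, Cdhr4 (410 and 336) and Deup1 (65.5 and 68.1) were detected, and Sntn was at 0 in both libraries.

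Members differed little between the libraries. The log2 ratio of replicate 2 over replicate 1, from expected counts scaled with edgeR's TMM factors, was below 0 for 44 members and above 0 for 26, with a median of -0.07 against -0.003 over 16811 protein-coding genes with at least 10 counts on average. The median absolute log2 ratio was 0.11 for members and 0.20 for protein-coding genes. Among genes with at least 1000 counts it was 0.10 over 61 members and 0.14 over 6984 genes. The ratio was highest for Cfap97d1, at 0.35, and all 5 tektins lay below 0, from -0.30 for Tekt4 to -0.07 for Tekt5.

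Dnah11 alone passed 2-fold, 1 of 70 members against 5.45% of protein-coding genes. Most of that background was genes with few counts: with at least 100 counts on average, 1 of 68 members passed, against 1.68% of protein-coding genes. Its log2 ratio was -2.03 (95% counting interval -2.42 to -1.66). Dnah5 followed at -0.84 (-1.20 to -0.49), then Rsph4a at -0.56 (-1.89 to 0.71) and Cfap97d2 at -0.49 (-1.70 to 0.68). The sums of the epididymis and peritubular markers moved the same way between these libraries, with TPMs of 715 and 3.81 and of 305 and 143. Of the 6 epididymis genes with at least 10 counts on average, 5 fell and 1, Rnase10, rose (2.42 and 3.23). The part of these markers in the result was not tested. Of the 8 multiciliated markers, 6 were under a TPM of 1 in both libraries, Sntn was at 0 in both, and the list summed to 477 and 405, most of it Cdhr4.

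**Figure D5:**
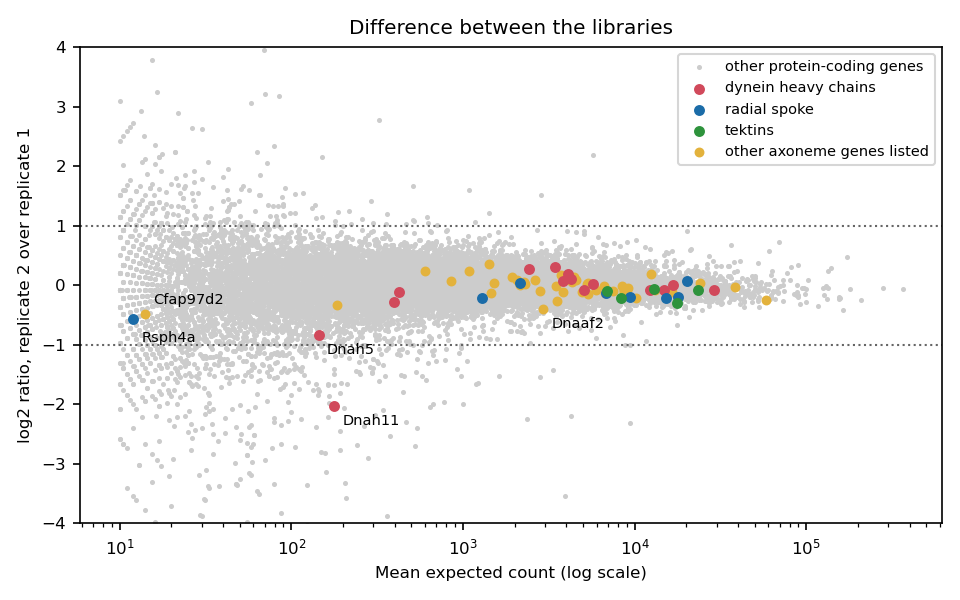
Log2 ratio of replicate 2 over replicate 1 (y axis, the widest ratios cut off) against the mean expected count (x axis, log scale) for members by class in colour and other protein-coding genes in grey, with dotted lines at 2-fold. Dnah11 lies below the lower line at -2.03, and the tektins and the spoke genes other than Rsph4a lie close to 0.

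Transcript use varied among members as it did elsewhere. Of the 66 detected members, 18 had a leading transcript with under 60% of the gene's TPM, or 27.3%, against 28.1% of detected protein-coding genes. The 5 lowest were Cfap43, Cfap74, Rsph14, Cfap221 and Cfap44. The leading Cfap43 transcript held 32.8% and 34.7% of the row, or a mean of 49.6% once Itprip-201 was set aside. That of Cfap74 held 33.7% and 34.4%, and 4 of its other transcripts were retained introns above a TPM of 5 in both libraries. Rsph6a, the spoke head gene, divided its TPM between 2 coding transcripts, Rsph6a-201 at 127 and 98.4 and Rsph6a-202 at 85.9 and 94.9.

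The leading transcript was not protein-coding in the later annotation for 8 of the 66, or 12.1%, against 10.8% of detected protein-coding genes. In Cfap45 the retained intron transcript Cfap45-205, of 661 bases, held 73.4% and 74.7%, so that its coding transcript Cfap45-201 had a TPM of 69.5 and 64.0 out of a gene total of 268 and 264. In Dnah12 the leading transcript, at 61.0% in each library, was not in the later annotation. In Cfap44, a 593-base non-stop decay transcript held 37.9% and 42.6%. In Cfap36, the retained intron transcript Cfap36-204 held 59.5% and 48.2%, and the coding Cfap36-201 had a TPM of 51.2 and 63.0. Cfap61 was led by the 577-base processed transcript Cfap61-210, at 45.9% and 39.3%, with 31.5% of its TPM over both libraries in coding transcripts.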

How the data were processed

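The deposited readme places the gene and transcript tables on mm10 with annotation M4. The authors gave, per the file headers, expected counts, not normalised, with a posterior SD of each count, and scaled them to TPM and FPKM. The deposited percent is how a gene's TPM divides among its transcripts. Neither aligner nor quantifier is named in the sources used here. Deposited junctions and contigs, on mm9, were not used here. Symbols, positions and transcript types came from GENCODE M21 by unversioned identifier, for 42462 of 43346 Ensembl genes. The 26248 numeric identifiers had 0 counts and were left out, and 97 spike-ins, with 2.68% and 2.51% of counts, stayed out of the scaling.

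Ratios between libraries used rounded expected counts scaled by TMM (replicate 2 over 1: 1.05, edgeR 4.0.16, R 4.3.3) for genes with at least 10 counts on average, with exact binomial 95% intervals. DESeq2 1.42.0 gave the alternative. The scaling was tested on simulated data. Intervals cover counting error only, over medians of 4646 and 4848 counts per member. Shared sequence was the percent of a gene's 76-base stretches, the read length, found in transcripts of another gene. Promoters came from RefSeq, GRCm38.p6.

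The members, the 13 gene lists, the roles and the rule for naming genes were chosen with earlier results of these data known. The rule names every dynein, assembly, spoke, Drc and tektin member, and for each Cfap role the 3 highest, the lowest and any under a TPM of 1. It also names members past 2-fold, the 5 with the lowest leading transcript share and, in each axoneme list, the highest and lowest gene. The promoter windows outside Dnah7 and the tektins, and any other gene or transcript named here, were picked with their values in view. With 1 group, no test between groups was run.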

Additional observations from a re-analysis of the deposited data

How the results depend on the processing

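No paired analysis was possible because the libraries form 1 group. Among the alternatives, 31 values stayed within the main value's spread or within 1.5 times a main count and 12 moved, and none changed sign. The number of detected members was 65 to 70 under all alternatives. The median TPM of members, 48.0, was 56.8 after rescaling to nuclear protein-coding genes, 38.4 in FPKM and 48.7 over detected members only; leaving out each library in turn gave 46.95 to 47.8. On log2(TPM + 1), 0 members passed 2-fold, since Dnah11 lies under a TPM of 1, where that scale shrinks ratios. The median log2 ratio was -0.0668 with total counts, -0.0554 on log2(TPM + 1) and -0.0611 on log2(TPM + 0.1). The Dnah8 and Dnah17 share was 98.4% in counts and 96.5% to 97.8% for single libraries. The Rsph6a share was 99.951% from posterior means, 99.921% in counts and 99.953% to 99.964% for single libraries. With the full X-box in place of the RFX motif, 1 member matched; with the 200-base window, 19 did. Without replicate 1 or 2, detected members stayed at 66 and those with a leading transcript under 60% at 18.

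Depth limits mainly the low members: Rsph4a and Cfap97d2 rest on 10 to 16 counts, so their ratios between libraries have intervals that span 0. Members that share stretches with each other (Rsph3a and Rsph3b, and Dnah7a, Dnah7b and Dnah7c) depend on how reads were divided. TPM of a gene sums over transcripts of any length, so short transcripts weigh heavily in long genes. The 2 libraries carry the same donor identifier, and no spread between animals can be given.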

Other observations

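Members with a longer effective length tended to have lower levels. TPM is itself divided by this length, so the 2 values are not independent. The length also varies with transcript use and is not the length of the gene. For Dnah7b it was 2599 and 3138 bases, beside a longest transcript of 12314. Across the 70 members, TPM and effective length had a Spearman rho of -0.48 in each library, and across detected protein-coding genes it was -0.31 and -0.30. This is across genes within a sample, and genes are not independent replicates.

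No member lies on the X or Y chromosome, against 4.38% of protein-coding genes on the X. Chromosome 11 holds 10 members, or 14.3%, against 7.57% of protein-coding genes, chromosome 1 holds 8, or 11.4% against 5.50%, and chromosome 5 holds 7, against 5.71%. The Dnah7 copies are among those on chromosome 1.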
